A study of Mus musculus with 21 samples.

Results

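The comparison set Foxa2-Venus positive (FVF+) cells of the mouse embryonic pancreas at E14.5 (E stands for embryonic day) against the same sort at E13.5. It used 5 of the 21 arrays of the series, 2 at E13.5 and 3 at E14.5, and every one of the 19296 genes measured, always as E14.5 minus E13.5. FVF is a fusion of the transcription factor Foxa2 with the Venus fluorescent protein. Cells that carry it were collected by fluorescence-activated sorting as FVF+ and the others as FVF-. All embryos had a mixed C57-Bl6, SV129 and CD1 background and no treatment is named. The other arrays held FVF+ cells of E12.5 (3) and E15.5 (3) and FVF- cells of all 4 days. Total RNA was labelled for Affymetrix whole-transcript arrays, and the values are log2 signals summarised by robust multi-array average (RMA).

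Foxa2 is made in the epithelium of the pancreatic bud, which gives rise to acinar, ductal and endocrine cells, while mesenchyme, vessels, nerves and blood lie outside it. Between these days the mouse pancreas enters the secondary transition. Cells at the tips of the branching epithelium then turn into acinar cells that make digestive enzymes. Trunk cells give rise to ducts and, through a short-lived state marked by the transcription factor Neurog3, to hormone-producing endocrine cells. The early bud already holds a first wave of glucagon cells before this.

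The design text speaks of biological replicates but names no embryos, litters or pools. The p-values therefore rest on the spread among arrays, which may be technical, and the small number of arrays limits the precision. Markers fitted the label of the sort: the mean signal of 8 epithelial markers, among them Cdh1 (E-cadherin), Krt8 and Foxa2 itself, was 12.73 and 12.74 on the E13.5 arrays and 12.77, 12.81 and 12.72 on the E14.5 arrays, against 8.54 and 8.92 in FVF- cells of E13.5. Foxa2 was 11.20 and 11.07 at E13.5 and 11.26, 11.51 and 11.17 at E14.5, a difference of 0.18 ± 0.20 (standard error, SE) that did not pass the test (adjusted p = 0.623). On the first principal component of the 11 FVF+ arrays, which held 60.1% of their variance, the E13.5 arrays lay at -20.79 and -28.48 and the E14.5 arrays at 3.64, 27.14 and -2.84. Replicate 2 of E14.5 thus stood apart from the other two, towards the E15.5 arrays at 38.01 to 39.77, and its correlation with them over all genes was 0.985 to 0.992 against 0.991 and 0.987 with its own group. The second component, with 13.9%, separated the E14.5 arrays (-20.56 to -21.84) from all others (1.66 to 20.97).

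**Figure D1:**
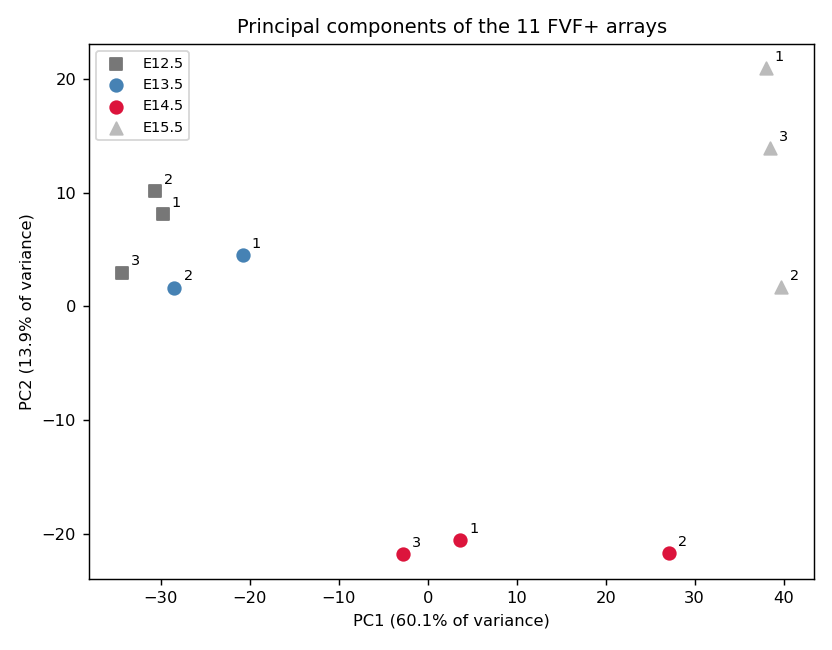
Each point is 1 FVF+ array on the first principal component (x axis, 60.1% of variance) and the second (y axis, 13.9%) of all 19296 genes, with its replicate number beside it and its embryonic day as colour and marker. The 2 E13.5 arrays lie near the E12.5 arrays, and the 3 E14.5 arrays lie lower than all others, with replicate 2 (27.14) nearest to E15.5 on the x axis.

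The sample descriptions end in a letter for both FVF+ E13.5 arrays and 1 FVF- E13.5 array, and in a number for the other 18 arrays. The labels do not say what the letter stands for. Within the FVF+ sort, letter and E13.5 cannot be told apart. A term for the letter could be fitted only through the pair of FVF- E13.5 arrays, which also differed in acinar markers (mean 8.63 on the numbered and 7.93 on the lettered array). With that term 73 genes rose and 54 fell, and 18 of the 77 called genes that are named here kept their call: Try10, Prss3, Try5, Cpb1, Erp27, Sst, Ins2, Slc30a8, Rab27a, Glp1r, G6pc2, Onecut3, Hey1, Jag1, Nrarp, Fgg, Trf and Pltp. The other 59 were not called with it. The difference from E12.5 to E14.5, which uses numbered arrays only, is given for the genes that lead the groups, and it spans 2 days.

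Between E13.5 and E14.5, 1134 genes rose and 573 fell at an adjusted p under 0.05 (limma, Benjamini-Hochberg), which is 5.88% and 2.97% of the genes tested and 8.85% in all. At least 2-fold changes were made by 231 rises (1.2%) and 69 falls (0.358%). The median difference over all genes was -0.04 on the log2 scale. On every E14.5 array 3975 genes (20.6%) lay above both E13.5 arrays and 4660 (24.2%) below both, so an absence of overlap between these groups is common, called or not. The counts moved with single arrays. Without E13.5 replicate 2 they were 392 rises and 163 falls, without E13.5 replicate 1 614 and 235, without E14.5 replicate 2 737 and 372, and without E14.5 replicate 1 889 and 369. The neighbouring steps share arrays with this one: 1 gene was called from E12.5 to E13.5 (0.00518%, with 1873 at an unadjusted p under 0.05), 4931 from E14.5 to E15.5 (25.6%, 14.7% higher and 10.8% lower) and 3103 over the 2 days from E12.5 to E14.5 (16.1%), of which 1839 were higher (9.53%) and 1264 lower (6.55%).

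The genes that rose held many of the FVF+ sort. Sort preference was taken as the mean difference between FVF+ and FVF- cells over E12.5 and E15.5. The means of these days do not enter the E14.5 minus E13.5 difference, but their arrays entered the estimate of the spread. A rise that lasted to E15.5 also raises the preference, so the shares below are not independent of the calls. Of the 1134 genes that rose, 286 (25.2%) were at least 2-fold higher in FVF+ cells and 28 (2.47%) at least 2-fold higher in FVF- cells. Of the 573 that fell, 37 (6.46%) were FVF+ genes and 130 (22.7%) FVF- genes. Over all genes these shares were 5.19% and 6.43%. Read the other way, 28.6% of the 1001 FVF+ genes rose and 3.7% fell, with a median difference of 0.26, while 2.26% of the 1241 FVF- genes rose and 10.5% fell, with a median of -0.19. In bulk samples, fewer cells of a type and less RNA per cell cannot be told apart.

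**Figure D2:**
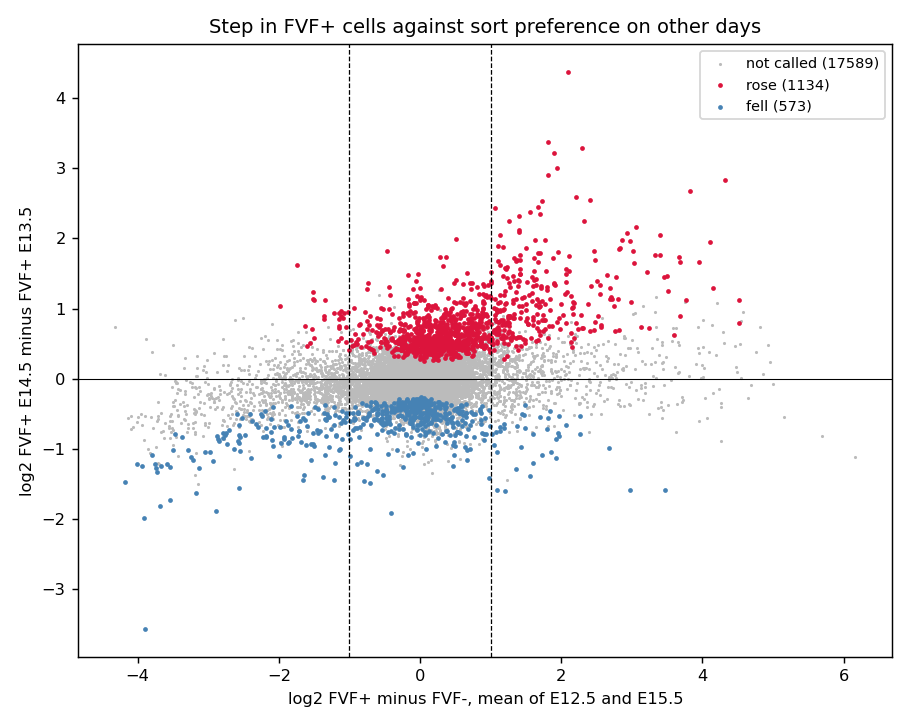
Each point is 1 gene. The x axis is its log2 signal in FVF+ minus FVF- cells averaged over E12.5 and E15.5, the y axis its log2 difference in FVF+ cells, E14.5 minus E13.5, and the dashed lines mark 2-fold. Of the genes that rose (red, 1134), 286 lie right of the upper dashed line and 28 left of the lower one, and of those that fell (blue, 573), 37 and 130 do.

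Digestive enzyme genes held the largest rises. Of 15 measured acinar protease and zymogen genes, 10 rose and 0 fell (against 5.88% and 2.97% of all genes), with a median of 1.16. Among 19 lipase, amylase and other acinar secretory genes, 11 rose and 0 fell, with a median of 0.90. At an unadjusted p under 0.05 in limma, 0 and 1 member of these lists lay lower. The trypsinogen gene Try10 measured 7.45 and 7.0 at E13.5 and 11.27, 12.12 and 11.40 at E14.5. All 3 E14.5 arrays lay far above both E13.5 arrays, a 20.7-fold rise (log2 4.37 ± 0.39, adjusted p = 3.04e-06). Prss3, another trypsinogen, went from 6.30 and 6.39 to 9.72, 9.89 and 9.55, which is 3.38 ± 0.21 (adjusted p = 1.04e-07). Try5 rose by 2.37 ± 0.20. Mouse trypsinogens are near-identical copies, so their probe sets may share signal and the split between them is uncertain.

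Cpb1, which encodes the zymogen of carboxypeptidase B, had values of 7.2 and 6.7 at E13.5 and of 9.84, 10.62 and 10.04 at E14.5. The rise of 3.22 ± 0.35 (9.30-fold, adjusted p = 2.55e-05) was followed by a further 2.19 to E15.5. All 4 elastase genes of the list rose, by unequal amounts. Cela3b went from 8.14 and 7.93 to 10.20, 11.18 and 10.07 and rose by 2.45 ± 0.32, and Cela2a rose by 2.31 ± 0.27. Cela1 (1.04 ± 0.25) and Cela3a (0.69 ± 0.18) had smaller rises, and neither was called without E13.5 replicate 2 (0.86 and 0.80, adjusted p = 0.176 and 0.0711) or E14.5 replicate 2 (0.95 and 0.68, 0.0571 and 0.0538). Cela3a was not called either without E13.5 replicate 1 (0.58, 0.204) or E14.5 replicate 3 (0.66, 0.0507). In Cela3b, as in Try10, Prss3 and Cpb1, replicate 2 was the highest E14.5 array. Pdia2, a protein disulphide isomerase of the pancreas, rose by 2.90 ± 0.38, Rnase1 (pancreatic ribonuclease) by 2.53 ± 0.41, Cym (the milk-clotting protease chymosin) by 2.58 ± 0.36 and Erp27 (an endoplasmic reticulum protein) by 1.44 ± 0.18. Sycn, a zymogen granule protein, rose by 1.45 ± 0.31, and Cel (carboxyl ester lipase) by 1.47 ± 0.38.

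Once the letter term was in the fit, Try10 had a difference of 4.50, Prss3 of 3.43, Cpb1 of 3.26 and Try5 of 2.53, all still called, whereas Cela3b (1.96, adjusted p = 0.164), Cela2a (2.34, 0.0503), Pdia2 (3.09, 0.0646) and Rnase1 (2.72, 0.132) were not. Over the numbered arrays of E12.5 and E14.5, Try10 differed by 4.71, Prss3 by 3.65, Cpb1 by 3.80 and Cela3b by 2.73. In these lists the letter term left 4 of 15 and 2 of 19 rises. Without E13.5 replicate 2 the lists had 7 and 5 rises, without E13.5 replicate 1 8 and 7, and without E14.5 replicate 2 7 and 9. Sycn (1.39, adjusted p = 0.0731) lost its call without E13.5 replicate 2, and Cel without that array (1.30, 0.172), E13.5 replicate 1 (1.63, 0.0737) or E14.5 replicate 2 (1.37, 0.067).

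Several acinar enzyme genes were already near the top of the scale at E13.5. Cpa1, carboxypeptidase A1 and a marker of multipotent tip cells, had 14.76 and 14.82 at E13.5 and 14.87, 14.94 and 14.91 at E14.5, where the highest value in the table is 15.31. Its difference of 0.12 ± 0.26 was not called (adjusted p = 0.823). Ctrb1 (chymotrypsinogen B) differed by 0.74 ± 0.44 (adjusted p = 0.323) and Clps (colipase) by 0.34 ± 0.31 (adjusted p = 0.543), with E14.5 values up to 14.92 and 14.93. In FVF- cells of the same days these 3 rose, Cpa1 by 1.10 (adjusted p = 0.0189), Ctrb1 by 3.13 (0.00123) and Clps by 1.81 (0.00376).

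**Figure D3:**
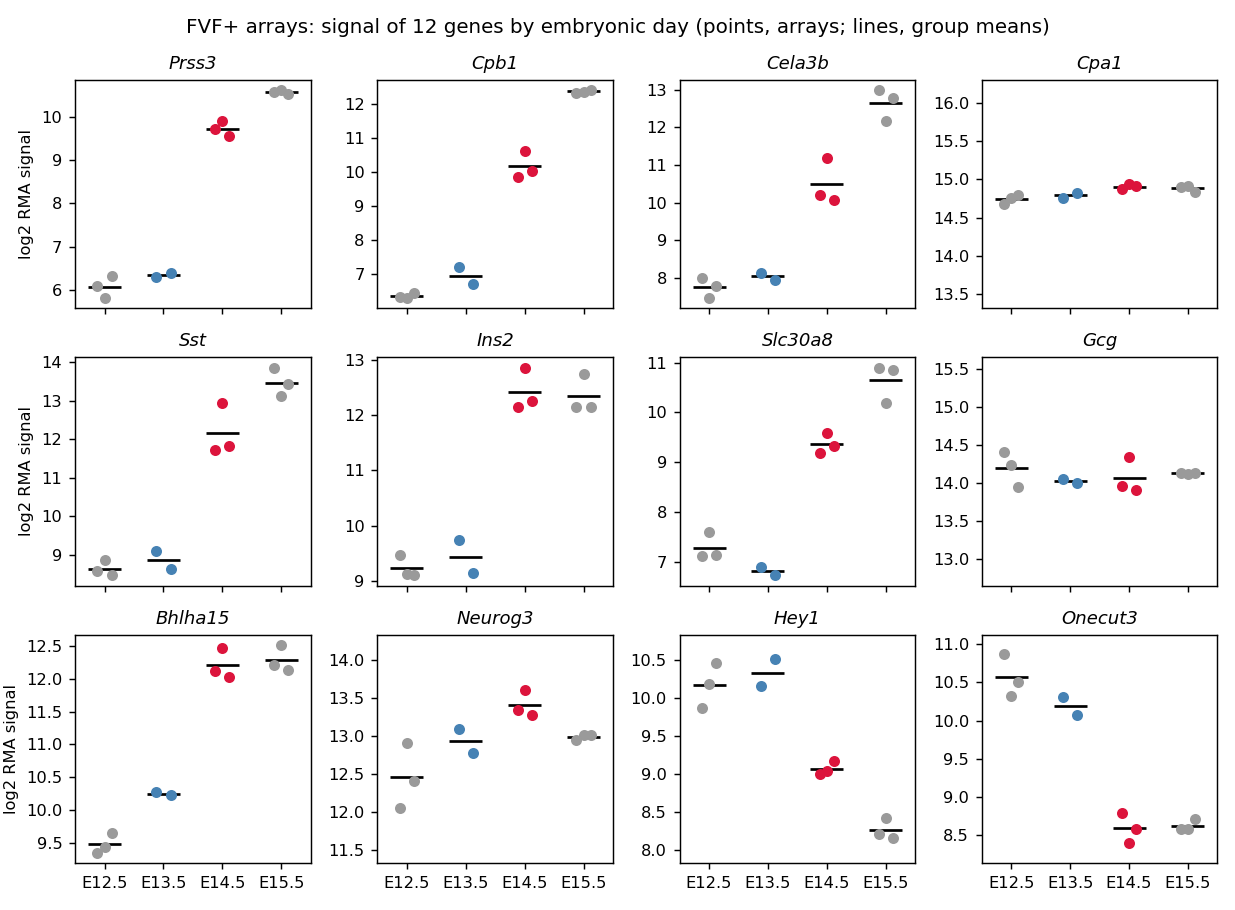
Log2 RMA signal (y axis, each panel spanning at least 3 units) of 12 genes on every FVF+ array, by embryonic day (x axis). Points are arrays, blue for E13.5 and red for E14.5, and black lines are group means. Prss3, Cpb1, Cela3b, Sst, Ins2, Slc30a8 and Bhlha15 have all red points above both blue ones by over 1 unit, Hey1 and Onecut3 have them below, and Cpa1, Gcg and Neurog3 differ by less than 0.5.

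The transcription factors that run the acinar program gave a mixed picture. Among 8 of them 2 rose (25.0%, against 5.88% of all genes) and 0 fell (against 2.97%, and 0 also at an unadjusted p). Their median was 0.53. Bhlha15 (Mist1), which organises the secretory machinery of acinar cells, measured 10.27 and 10.23 at E13.5 and 12.12, 12.48 and 12.03 at E14.5. It rose by 1.96 ± 0.30 (3.89-fold, adjusted p = 0.00049), to a level that differed by 0.08 from that of E15.5. From E12.5 it rose by 2.73 (adjusted p = 2.19e-06). Gata4 rose by 0.71 ± 0.16. Ptf1a, whose protein complex switches on the enzyme genes, had 10.51 and 10.38 against 11.51, 11.36 and 11.23. The groups did not overlap, and its difference of 0.92 ± 0.32 did not pass the test (adjusted p = 0.0828). It did in a fit of the 5 arrays alone (adjusted p = 0.0167) or of the 11 FVF+ arrays (0.00268). With the letter term 0 of the 8 factors were called. Rbpjl, the acinar partner of Ptf1a, differed by 0.74 ± 0.58 (adjusted p = 0.47). Gata4 was not called without E13.5 replicate 2 (0.63, adjusted p = 0.125), and with the letter term neither Gata4 (0.55, 0.599) nor Bhlha15 (1.57, 0.272) was.

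Of 54 measured genes for protein secretion through the endoplasmic reticulum (ER), 24 rose, 0 fell (34 and 0 at an unadjusted p) and 30 were not called, with a median of 0.36. The rises made up 44.4%, against 5.88% of all genes, of which 2.97% fell. Creb3l1, a membrane-bound transcription factor of ER stress, rose by 1.12 ± 0.16 (adjusted p = 0.000209), from 10.29 and 10.31 to 11.42, 11.76 and 11.08, and by 1.74 from E12.5 to E14.5 (adjusted p = 2.83e-07). Sdf2l1, an ER chaperone cofactor, rose by 1.0 ± 0.19, Herpud1, which serves ER-associated degradation, by 0.95 ± 0.17, and Sec24d, a coat protein of vesicles that leave the ER, by 0.87 ± 0.12. Hspa5 (BiP), the ER chaperone that binds unfolded chains, was 13.39 and 13.38 at E13.5 and 13.64, 13.39 and 13.68 at E14.5, a difference of 0.18 ± 0.11 that was not called. The letter term left 0 ER genes called (7 rises at an unadjusted p) and the median was 0.20, and the count was 11 without E13.5 replicate 1 and 10 without replicate 2. In FVF- cells Sdf2l1 also rose, by 0.81 (adjusted p = 0.0198), and Sec24d by 0.49 (0.0236).

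Hormone genes had the highest median of all lists, 1.69, with 8 of 11 measured rising and 0 falling (1 at an unadjusted p). Rises thus made up 72.7%, against 5.88% of all genes, of which 2.97% fell. Somatostatin (Sst), the hormone of delta cells, had 9.10 and 8.63 at E13.5 and 11.71, 12.94 and 11.82 at E14.5. The rise of 3.29 ± 0.27 (9.79-fold, adjusted p = 1.61e-06) was present on each E14.5 array and largest on replicate 2. Ins2, 1 of the 2 mouse insulin genes, went from 9.73 and 9.14 to 12.16, 12.87 and 12.27, a rise of 3.00 ± 0.26 (7.99-fold, adjusted p = 2.68e-06). Its mean at E15.5 was 12.36, or 0.08 below that of E14.5. Iapp, the amylin of beta cells, rose by 2.84 ± 0.39, from 10.58 and 10.22 to 12.94, 13.73 and 13.04.

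Pancreatic polypeptide (Ppy) rose by 1.98 ± 0.28, ghrelin (Ghrl) by 1.86 ± 0.25 and gastrin (Gast) by 1.69 ± 0.30. Gast fell again by 1.33 to E15.5. Glucagon (Gcg), the alpha-cell hormone, went another way: it had 14.05 and 14 at E13.5 and 13.96, 14.34 and 13.90 at E14.5, overlapping groups and a difference of 0.04 ± 0.63 (adjusted p = 0.977). Its mean was already 14.19 at E12.5, near the top of the scale. Fitted with the letter term, Sst (3.29, adjusted p = 0.00827) and Ins2 (3.23, 0.00683) kept their calls, and Iapp (2.49, 0.156), Ppy (2.14, 0.0746), Ghrl (1.98, 0.0723) and Gast (1.99, 0.127) did not. Between the numbered arrays of E12.5 and E14.5 the differences were 3.53 for Sst, 3.21 for Ins2, 2.63 for Iapp, 1.35 for Ppy and 2.42 for Ghrl. Gast was not called without E13.5 replicate 2 (1.41, adjusted p = 0.051).

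Secretory granule and prohormone processing genes had 20 rises among 26 (76.9%, against 5.88% of all genes) and 0 falls (against 2.97%, and 0 at an unadjusted p). Their median was 1.13. Slc30a8, the zinc transporter of insulin granules, measured 6.89 and 6.73 at E13.5 and 9.18, 9.58 and 9.32 at E14.5. This was a rise of 2.55 ± 0.19 (5.86-fold, adjusted p = 8.19e-07), with no overlap between the days. Scgn (secretagogin, a calcium sensor) had 9.99 and 8.44 against 11.54, 12.25 and 11.87 and rose by 2.67 ± 0.35. Rab27a, a small GTPase of granule release, rose by 1.68 ± 0.15, Pcsk1 (prohormone convertase) by 1.77 ± 0.22 and Cpe (carboxypeptidase E) by 1.58 ± 0.27. The granins Chga and Chgb rose by 1.25 ± 0.29 and 1.29 ± 0.39.

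The E13.5 arrays themselves differed in endocrine genes: the mean of 9 endocrine markers was 11.45 on replicate 1 and 10.72 on replicate 2, against 12.48 to 12.81 at E14.5. Chgb, for example, had 12.40 and 10.95 at E13.5. Without replicate 2, 9 of the 26 granule genes rose, and Chga (0.77, adjusted p = 0.22), Chgb (0.57, 0.513) and Cpe (1.20, 0.0566) were not called. Chgb was also not called without any one of the E14.5 arrays (1.27 to 1.31, adjusted p = 0.0751 to 0.1). With the letter term 2 granule genes rose, Slc30a8 (2.51) and Rab27a, and Scgn had 2.77 (adjusted p = 0.0687). From E12.5 to E14.5 Slc30a8 differed by 2.08, Scgn by 3.13, Pcsk1 by 1.98 and Chgb by 1.85.

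Of 17 glucose-sensing and beta-cell genes 8 rose (47.1%, against 5.88% of all genes) and 1 fell (5.88%, against 2.97%), with a median of 0.60. Glp1r, the receptor for the incretin GLP-1, had 7.23 and 7.2 at E13.5 and 9.26, 10.31 and 9.36 at E14.5 and rose by 2.43 ± 0.26 (adjusted p = 2.23e-05), and by 2.49 from E12.5 (1.32e-06). G6pc2, the islet subunit of glucose-6-phosphatase, went from 6.54 and 6.22 to 8.20, 8.59 and 8.51, a rise of 2.05 ± 0.15. The fatty acid receptor Ffar1 rose by 1.68 ± 0.22. The single fall was that of Slc2a2 (GLUT2), the glucose transporter of beta cells that early pancreatic progenitors also make: 10.55 and 11.45 at E13.5, then 9.15, 9.84 and 9.26, a fall of 1.58 ± 0.25 on the log2 scale (adjusted p = 0.000694). Its mean was 11.69 at E12.5. Under the letter term Glp1r (2.59) and G6pc2 (1.98) stayed called, while Ffar1 (1.78, adjusted p = 0.0671) and Slc2a2 (-1.51, 0.195) did not.

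Endocrine commitment genes, mostly transcription factors that act after Neurog3, had 10 rises and 0 falls among 30 (17 and 1 at an unadjusted p), with a median of 0.55. The 10 rises are 33.3%, against 5.88% of all genes, of which 2.97% fell. Pax6 rose by 1.73 ± 0.36 (1.42 from E12.5 to E14.5, adjusted p = 0.00494), Isl1 by 1.4 ± 0.25, Mlxipl (a glucose-responsive factor) by 1.39 ± 0.28, Myt1 by 1.38 ± 0.26 and Neurod1 by 1.13 ± 0.29. Neurog3 itself had 13.09 and 12.78 at E13.5 and 13.34, 13.61 and 13.28 at E14.5, a difference of 0.48 ± 0.39 that was not called (adjusted p = 0.487), and averaged 12.46 at E12.5 and later, at E15.5, 12.99. Neurod1 fell by 1.35 from E14.5 to E15.5 (adjusted p = 0.00241). Without E13.5 replicate 2, the array with the lower endocrine markers, 0 of the 30 were called (9 rises at an unadjusted p). The differences were then 1.23 for Pax6 (adjusted p = 0.131), 1.0 for Isl1 (0.0647), 1.22 for Mlxipl (0.075), 0.92 for Myt1 (0.102) and 0.68 for Neurod1 (0.315). Neurod1 also lost its call without E14.5 replicate 1 (1.05, 0.0682), and with the letter term 0 of the 30 were called (8 rises at an unadjusted p) at a median of 0.59.

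**Figure D4:**
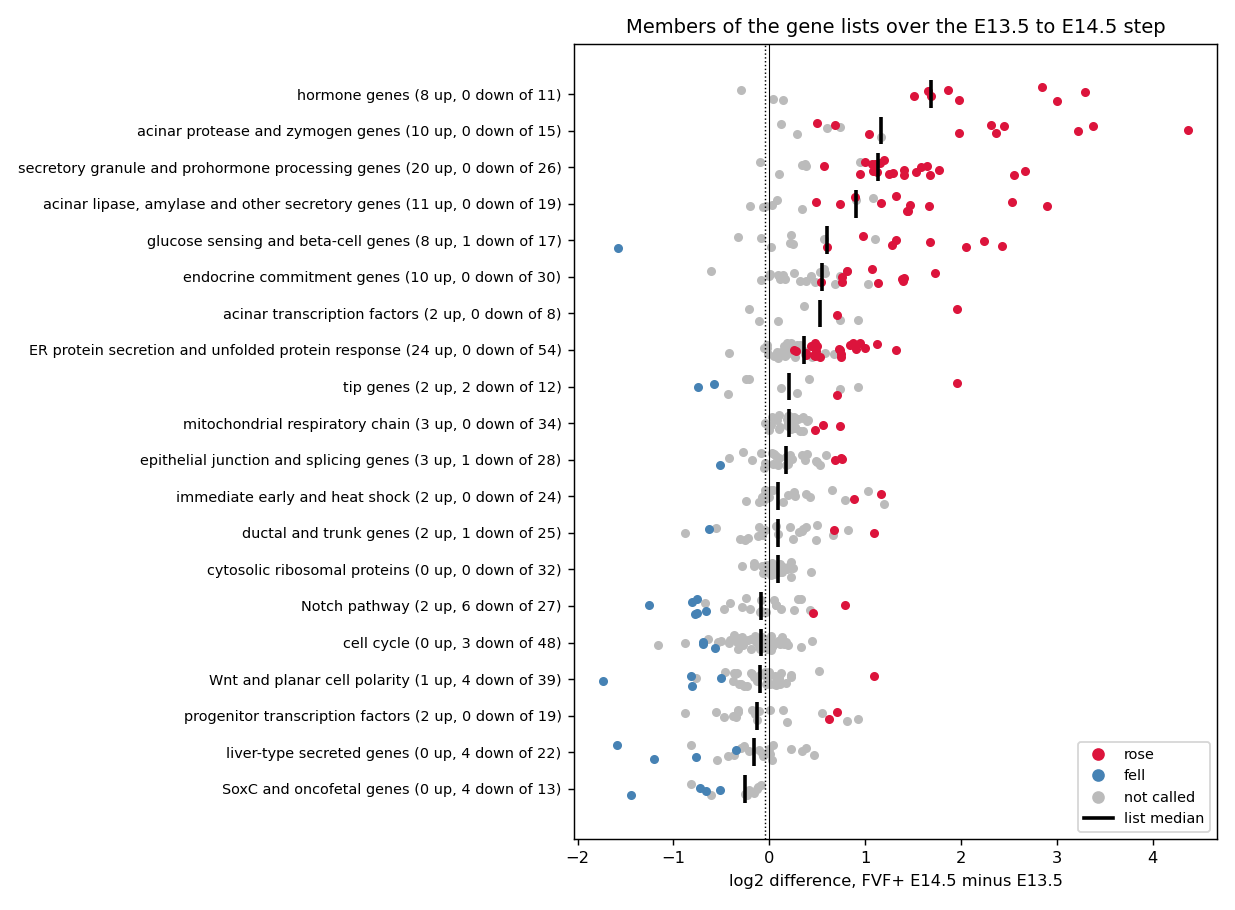
Each point is 1 gene of the list named on the y axis, at its log2 difference in FVF+ cells, E14.5 minus E13.5 (x axis). Red points rose, blue fell and grey were not called. Black bars are list medians, from 1.69 for hormone genes to -0.25 for SoxC and oncofetal genes, and the dotted line is the median of all genes, -0.04.

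The promoters of 4 genes of these lists with large rises, 2 acinar and 2 endocrine, show the sequences from which the rising genes are transcribed. They span 250 bases before to 50 after the annotated start, come from RefSeq on build GRCm38.p6, and are given in the direction of transcription. Capitals mark the letters TATAAA, the core of the TATA box, and E-boxes (CANNTG), the sites of basic helix-loop-helix factors such as Ptf1a, Bhlha15 and Neurod1. Prss3 lies at chr6:41377564-41377863 on the minus strand, Cpb1 at chr3:20275684-20275983 on the minus strand, Sst at chr16:23890795-23891094 on the minus strand and Iapp at chr6:142298175-142298474 on the plus strand.
Prss3: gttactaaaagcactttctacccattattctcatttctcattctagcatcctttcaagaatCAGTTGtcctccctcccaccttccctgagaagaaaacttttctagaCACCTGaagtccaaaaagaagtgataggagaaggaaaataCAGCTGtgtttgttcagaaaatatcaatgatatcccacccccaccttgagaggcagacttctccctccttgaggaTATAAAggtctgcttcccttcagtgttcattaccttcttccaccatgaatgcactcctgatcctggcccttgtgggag
Cpb1: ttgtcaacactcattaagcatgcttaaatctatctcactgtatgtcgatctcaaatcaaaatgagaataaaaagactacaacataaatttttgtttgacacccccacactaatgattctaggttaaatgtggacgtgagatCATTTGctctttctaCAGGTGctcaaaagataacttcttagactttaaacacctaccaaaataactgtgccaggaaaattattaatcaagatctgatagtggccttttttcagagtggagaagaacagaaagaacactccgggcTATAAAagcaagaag
Sst: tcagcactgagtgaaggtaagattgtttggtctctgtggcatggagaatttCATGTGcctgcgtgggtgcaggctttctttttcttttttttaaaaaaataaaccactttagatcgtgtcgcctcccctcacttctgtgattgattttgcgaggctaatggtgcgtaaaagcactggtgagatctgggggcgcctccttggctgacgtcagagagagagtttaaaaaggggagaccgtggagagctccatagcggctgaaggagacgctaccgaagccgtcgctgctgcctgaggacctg
Iapp: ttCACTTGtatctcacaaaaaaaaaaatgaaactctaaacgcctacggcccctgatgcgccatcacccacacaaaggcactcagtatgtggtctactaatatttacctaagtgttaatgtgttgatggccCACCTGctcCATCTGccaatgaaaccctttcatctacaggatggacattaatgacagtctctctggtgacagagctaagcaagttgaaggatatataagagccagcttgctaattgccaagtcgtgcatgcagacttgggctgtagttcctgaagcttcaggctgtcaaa
Prss3 holds 3 E-boxes and TATAAA from 28 bases before the start. Cpb1 holds 2 E-boxes, and its TATAAA begins 35 bases after the start, downstream of where a TATA box for that start would lie. Sst holds 1 E-box and Iapp 3.

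The same motifs were sought on both strands and counted per gene, where any promoter of a gene held the motif. A gene with several promoters thus has more places for a match. Promoters were found for 17 of 21 acinar genes that rose, 22 of 28 hormone and granule genes that rose and 15138 of all 19296 genes. TATAAA was present in 41.2% of the acinar, 18.2% of the endocrine and 13.6% of all genes with a promoter. E-boxes were in 82.4%, 77.3% and 71.3%. TGGGAA, the sequence bound by the Rbpjl part of the Ptf1a complex, was in 52.9%, 18.2% and 27.1%, and together with an E-box in 41.2%, 13.6% and 19.3%. TGTTTAC, a site of Foxa factors, was in 0 of the 17 acinar genes, 4.55% of the endocrine and 3.49% of all. CANNTG is a palindrome and counts once per place, and no match says only that these letters are not in the window.

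Of 19 measured transcription factors of pancreatic progenitors, 2 rose (10.5%, against 5.88% of all genes: Gata4 and Foxa3, the latter by 0.62 ± 0.18) and 0 fell (3 at an unadjusted p), and the median was -0.13. Pdx1, needed for the pancreas to form, was 12.16 and 12.20 at E13.5 and 12.02, 12.11 and 11.97 at E14.5, a difference of -0.15 ± 0.29. Sox9, kept by progenitors and duct cells, differed by -0.56 ± 0.27 (adjusted p = 0.21), Nkx6-1, a trunk and beta-cell factor, by -0.33 ± 0.29 (0.515) and Onecut1 by -0.88 ± 0.60 (0.391). In all 4 the E14.5 arrays lay below both E13.5 arrays, as they did for 24.2% of all genes. Sox9 (adjusted p = 0.0213) and Onecut1 (0.0225) were called in a fit of the 11 FVF+ arrays. In a fit of the 5 arrays alone 0 of the 19 fell and 3 rose, and with the letter term 0 were called. Foxa3 was not called without either E13.5 array (0.60 and 0.65, adjusted p = 0.212 and 0.168), without E14.5 replicate 1 (0.62, 0.093) or without E14.5 replicate 2 (0.54, 0.135).

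Onecut3, of the same family as Onecut1, fell clearly. It measured 10.31 and 10.07 at E13.5 and 8.79, 8.39 and 8.57 at E14.5, a fall of 1.61 ± 0.15 on the log2 scale (3.05-fold, adjusted p = 4.38e-06). It was called without any one array and with the letter term (-1.34, adjusted p = 0.0289). Its differences on the neighbouring steps, -0.38 from E12.5 to E13.5 and 0.03 from E14.5 to E15.5, were not called, while the fall of 1.98 from E12.5 to E14.5 was (adjusted p = 4.2e-08).

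Duct and trunk genes had 2 rises and 1 fall among 25 (8.0% and 4.0%, against 5.88% and 2.97% of all genes) and a median of 0.09. Clu (clusterin) rose by 1.09 ± 0.22 and Anxa4 (an annexin of apical epithelium) by 0.68 ± 0.13, while the carbonic anhydrase Car4 fell by 0.63 ± 0.12 on the log2 scale. The keratin Krt8 differed by 0.22 ± 0.19 and was not called. Junction and splicing genes of epithelia had 3 rises and 1 fall among 28 (10.7% and 3.57%), with a median of 0.17, and Cdh1 differed by 0.10 ± 0.38. Clu (1.01, adjusted p = 0.0641) and Anxa4 (0.61, 0.0521) were not called without E13.5 replicate 2, nor Car4 without E13.5 replicate 1 (-0.43, 0.0979).

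In the Notch pathway, which holds progenitors back from differentiating, 6 of 27 genes fell and 2 rose, with a median of -0.09. These are 22.2% and 7.41%, against 2.97% and 5.88% of all genes. Among the targets, Hey1 had 10.16 and 10.51 at E13.5 and 9.0, 9.04 and 9.17 at E14.5. This fall of 1.26 ± 0.19 on the log2 scale (adjusted p = 0.000338) was called without any one array and with the letter term (-1.69, adjusted p = 0.0256), and Hey1 fell by a further 0.81 to E15.5. From E12.5 to E14.5 it fell by 1.10 (adjusted p = 0.000173). Nrarp, a target that damps the pathway, fell by 0.75 ± 0.20. Hes1, the target that represses Neurog3, was 11.20 and 11.24 at E13.5 and 10.77, 10.63 and 10.84 at E14.5. Its E14.5 arrays lay below both E13.5 arrays, as for 24.2% of all genes. Its difference of -0.47 ± 0.15 narrowly missed the threshold (adjusted p = 0.0576), which it passed after quantile normalization (-0.54, 0.0202). With the letter term Hes1 was not called.

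Of the ligands and receptors, Jag1 fell by 0.75 ± 0.14 (11.34 and 11.58 against 10.91, 10.48 and 10.75), Notch3 by 0.81 ± 0.16 and Notch2 by 0.66 ± 0.14. Notch1 differed by -0.41 ± 0.14 (adjusted p = 0.0719). The 2 genes that rose were the fringe glycosyltransferases Mfng (0.79 ± 0.23) and Lfng (0.46 ± 0.13), which modify Notch receptors. Neither was called after quantile normalization (0.71 and 0.38, adjusted p = 0.0697 and 0.077), nor when either E13.5 array, E14.5 replicate 1 or E14.5 replicate 2 was left out (Mfng 0.58 to 0.92, Lfng 0.35 to 0.51). Without E13.5 replicate 2 the list had 1 fall, Hey1, and Jag1 (-0.63, adjusted p = 0.0626), Notch3 (-0.77, 0.0548), Notch2 (-0.54, 0.128) and Nrarp (-0.67, 0.197) were not called. Nrarp lost its call also without E13.5 replicate 1 (-0.84, adjusted p = 0.0909), E14.5 replicate 1 (-0.73, 0.073) or E14.5 replicate 2 (-0.70, 0.0864). With the letter term 3 fell, Hey1, Jag1 and Nrarp.

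Wnt and planar polarity genes had 4 falls and 1 rise among 39 (10.3% and 2.56%, against 2.97% and 5.88% of all genes), with a median of -0.10. Fzd2, a Wnt receptor, was 11.21 and 11.27 at E13.5 and 10.41, 10.32 and 10.54 at E14.5, and fell by 0.82 ± 0.12 on the log2 scale (adjusted p = 0.000335), and by 0.94 from E12.5 to E14.5 (9.18e-06). The ligand Wnt7b fell by 0.81 ± 0.20 and the secreted antagonist Sfrp1 by 1.73 ± 0.43. Celsr3, an atypical cadherin of planar polarity, rose by 1.09 ± 0.20. Fzd2 alone was called without E13.5 replicate 2, with Wnt7b at -0.62 (adjusted p = 0.209), Sfrp1 at -1.52 (0.159) and Celsr3 at 0.85 (0.0647). Wnt7b was not called either without E14.5 replicate 1 (-0.76, adjusted p = 0.0524), nor Sfrp1 without E13.5 replicate 1 (-1.94, 0.0587) or E14.5 replicate 3 (-1.54, 0.0508). From E12.5 to E14.5 Sfrp1 differed by -0.62 (0.313). It is an FVF- gene, with a log2 difference of -3.54 between FVF+ and FVF- cells over E12.5 and E15.5. With the letter term 0 Wnt genes were called.

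SoxC and oncofetal genes, typical of immature and fetal tissue, held falls and 0 rises. All 13 measured SoxC and oncofetal genes had a difference below 0, as did 57.7% of all genes. They had 4 called falls (30.8%, against 2.97% of all genes) and a median of -0.25. At an unadjusted p 6 fell and 0 rose. Sox11 went from 10.23 and 10.52 to 9.17, 8.54 and 9.09, a fall of 1.44 ± 0.28 on the log2 scale (adjusted p = 0.00287), and Igf2bp1, an mRNA-binding protein of embryos, fell by 0.66 ± 0.14. From E12.5 to E14.5 Sox11 fell by 1.79 (adjusted p = 7.27e-05). In FVF- cells Sox11 fell too, by 1.08 (adjusted p = 0.0265). Tip genes were split, with 2 rises and 2 falls among 12 (16.7% each, against 5.88% and 2.97% of all genes) and a median of 0.21. The rises were those of Bhlha15 and Gata4. Mycn fell by 0.74 ± 0.11 (adjusted p = 0.000269), from a mean of 10.82 to one of 10.08. Etv4, an ETS factor that responds to FGF signalling, fell by 0.58 ± 0.15. When E13.5 replicate 2 was left out, Sox11 (-1.30, adjusted p = 0.063), Igf2bp1 (-0.61, 0.0799) and Etv4 (-0.46, 0.217) were not called. Etv4 was not called either without E14.5 replicate 1 (-0.57, 0.0545) or replicate 3 (-0.55, 0.0521). With the letter term 0 SoxC and oncofetal genes were called (1 fall at an unadjusted p), Sox11 had -0.20 (0.934) and Mycn -0.56 (0.249).

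Cell cycle genes had 0 rises and 3 falls among 48 (6.25%, against 2.97% of all genes), with a median of -0.09. At an unadjusted p 1 lay higher and 10 lower, against 2482 and 2146 of all 19296 genes. Cdkn1c (p57), which holds cells out of the cycle, fell by 0.69 ± 0.15, Nusap1, a spindle protein, by 0.69 ± 0.20 and Ccnd1 (cyclin D1) by 0.57 ± 0.15. Pcna, the sliding clamp of DNA replication, had 13.42 and 13.60 against 13.54, 13.38 and 13.70, overlapping groups and a difference of 0.03 ± 0.12. Cdkn1c was not called without either E13.5 array (-0.68 and -0.69, adjusted p = 0.0546 and 0.0641), and Nusap1 (-0.50, 0.317) and Ccnd1 (-0.47, 0.206) not without E13.5 replicate 2. Nor were Nusap1 and Ccnd1 called without E13.5 replicate 1 (-0.88 and -0.68, adjusted p = 0.0555 and 0.051) or E14.5 replicate 2 (-0.47 for both, 0.154 and 0.0873).

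Some of the firmest falls were in genes better known from the liver or from lipid and amino acid metabolism. Fgg, the gamma chain of fibrinogen, had 7.51 and 7.53 at E13.5 and 5.92, 5.91 and 5.97 at E14.5. Its fall of 1.59 ± 0.15 on the log2 scale (adjusted p = 4.76e-06) followed a mean of 8.37 at E12.5, and it kept its value with the letter term (-1.59, adjusted p = 0.016). Pltp, the phospholipid transfer protein, went from 10.19 and 10.41 to 9.02, 8.83 and 8.69, a fall of 1.45 ± 0.16, while in FVF- cells it rose by 0.94 (adjusted p = 0.00381). Kynu (kynureninase, of tryptophan breakdown) fell by 1.59 ± 0.19, from 10.97 and 11.17 to 9.57, 9.05 and 9.83, and Trf (transferrin) by 0.77 ± 0.18. In the list of 22 liver-type secreted genes 4 fell (18.2%, against 2.97% of all genes) and 0 rose (against 5.88%). At an unadjusted p 5 fell and 0 rose. Their median was -0.16, and Afp (alpha-fetoprotein) differed by -0.30 ± 0.23. The mean of 8 liver markers was 8.31 and 8.51 at E13.5 and 7.73, 8.03 and 7.86 at E14.5. Fgg, Pltp and Kynu were called without any one array, Trf not without either E13.5 array (-0.81 and -0.74, adjusted p = 0.0652 and 0.105), and Kynu not with the letter term (-1.37, 0.0967).

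Of 16 mesenchyme markers, which stand for cells outside the epithelium, 4 fell (25.0%, against 2.97% of all genes) and 0 rose (against 5.88%). At an unadjusted p 6 fell and 0 rose, against 2146 and 2482 of all 19296 genes. The median was -0.42, and their mean signal was 9.56 and 9.75 at E13.5 and 9.45, 9.30 and 8.83 at E14.5. In FVF- cells of E13.5 it was 12.04 and 11.94. Pdgfra fell by 1.25 ± 0.37, Tcf21 by 1.21 ± 0.27, Fn1 (fibronectin) by 0.75 ± 0.16 and Vim (vimentin) by 0.41 ± 0.09, whereas the collagen gene Col1a1 had overlapping values of 10.33 and 10.46 against 10.48, 10.48 and 9.73. Tgfbi, a matrix protein with a log2 difference of -3.91 between FVF+ and FVF- cells on the other days, fell by 1.98 ± 0.42, from 11.12 and 10.94 to 9.45, 9.07 and 8.63, after a mean of 9.68 at E12.5. From E12.5 to E14.5 Pdgfra differed by -0.22 (adjusted p = 0.736), Tcf21 by -0.28 (0.494) and Tgfbi by -0.63 (0.296), none of them called, while Fn1 fell by 1.06 (4.44e-05) and Vim by 0.35 (0.00723). The part of mesenchymal RNA in the falls was not tested. When genes at least 2-fold higher in FVF- cells were left out, which was decided after the values were seen, 1121 genes rose and 452 fell. Of the 16 mesenchyme markers 0 were called with the letter term (3 falls at an unadjusted p) or without E13.5 replicate 2 (5 falls at an unadjusted p, Tcf21 -0.97, adjusted p = 0.136, Fn1 -0.60, 0.111, Vim -0.34, 0.138), and Pdgfra was also not called without E13.5 replicate 1 (-1.24, 0.189), E14.5 replicate 2 (-1.26, 0.0865) or E14.5 replicate 3 (-1.0, 0.122). Tgfbi was not called without either E13.5 array (-1.89 and -2.07, adjusted p = 0.0628 and 0.051).

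The largest fall of all was that of Hbb-y, the embryonic beta-like globin of primitive red cells. It measured 11.40 and 11.01 at E13.5 and 7.85, 7.31 and 7.76 at E14.5, which is -3.56 ± 0.75 (11.8-fold lower, adjusted p = 0.0054), but it had a mean of 8.84 at E12.5. Hba-x, the embryonic alpha-like globin, was 9.84 and 9.90 against 8.50, 8.22 and 8.41, a difference of -1.49 ± 0.53 that was not called (adjusted p = 0.0923). Over 13 red cell markers the mean was 8.23 and 8.12 at E13.5 and 7.81, 7.71 and 7.79 at E14.5. Hbb-y was the 1 that fell (7.69%, against 2.97% of all genes). Hbb-y was not called without E13.5 replicate 1 (-3.37, adjusted p = 0.0628) or with the letter term (-3.62, 0.34).

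**Figure D5:**
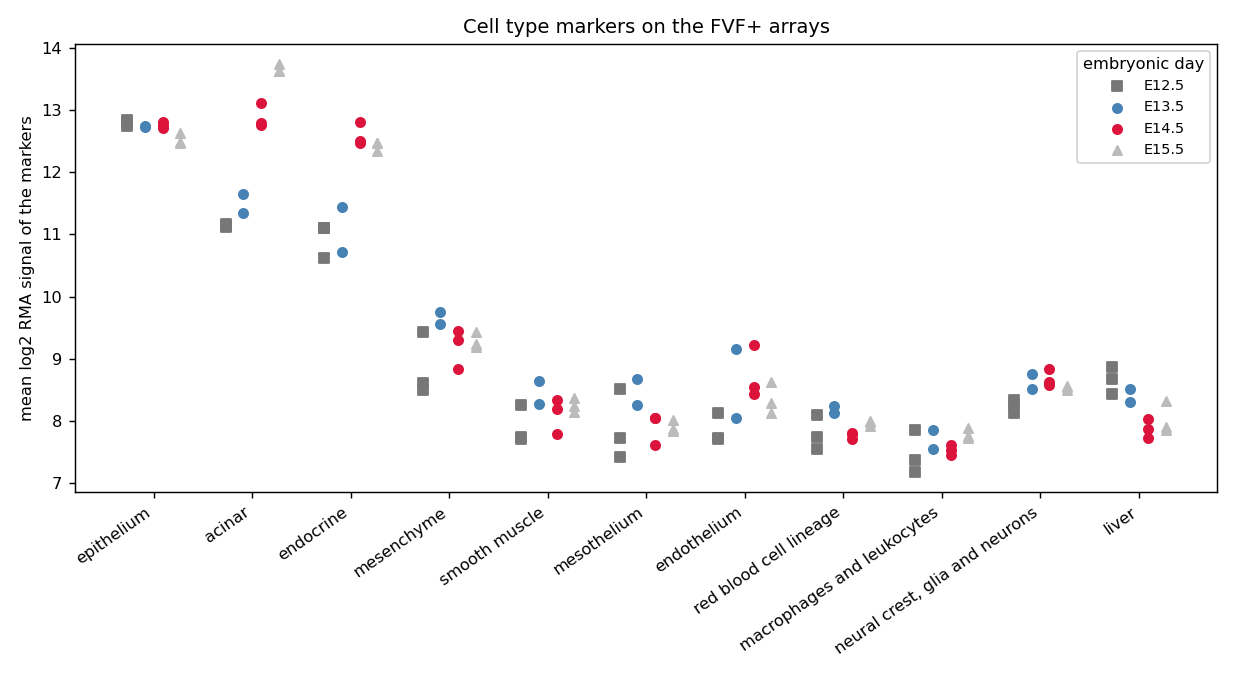
Mean log2 RMA signal (y axis) of the markers of 11 cell types (x axis) on each FVF+ array, with the embryonic day as colour and marker. Acinar and endocrine markers are higher on all E14.5 arrays (red) than on the E13.5 arrays (blue), epithelial markers lie between 12.72 and 12.81 on all 5, and the mesenchyme, mesothelium, red cell and liver means of E14.5 lie below both E13.5 values.

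Other marker lists held few calls. None of 8 smooth muscle, 5 mesothelium, 14 endothelium and 8 epithelium markers was called, with medians of -0.24, -0.51, 0.15 and 0.13, and 1, 2, 0 and 0 of them lay lower at an unadjusted p under 0.05 in limma. Endothelial means were uneven within groups, 8.04 and 9.15 at E13.5 and 8.43, 9.22 and 8.54 at E14.5. Of 20 macrophage and leukocyte markers 1 rose (5.0%) and of 7 mast cell markers 1 rose (14.3%), against 5.88% of all genes. Of 13 markers of neural crest, glia and neurons 2 rose (15.4%). These were Ret, a receptor tyrosine kinase, by 1.14 ± 0.17 and Th, the catecholamine enzyme tyrosine hydroxylase, by 1.11 ± 0.25. Over E12.5 and E15.5 their log2 difference between FVF+ and FVF- cells was 1.06 and 0.90. Th was not called without either E13.5 array (1.07 and 1.15, adjusted p = 0.0814 and 0.0701). Mitochondrial respiratory chain genes had 3 rises among 34 and a median of 0.21, cytosolic ribosomal protein genes 0 calls among 32 (1 higher and 1 lower at an unadjusted p) and a median of 0.09, and immediate early and heat shock genes, which respond to handling of tissue, 2 rises among 24 and a median of 0.09.

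Whether the step differed between the sorts was tested as an interaction, which was called for 531 genes (2.75%), 215 with a higher (1.11%) and 316 with a lower change (1.64%) in FVF+ cells. In FVF- cells 1602 genes were called between the same days (8.3%), 1096 higher (5.68%) and 506 lower (2.62%). The FVF- arrays themselves differed in epithelial signal between the days. Their 8 epithelial markers had means of 8.54 and 8.92 at E13.5 and 9.40, 8.53 and 9.91 at E14.5, with a median change of 0.64, and their 7 acinar markers had 8.63 and 7.93, then 9.81, 9.22 and 10.80, with a median change of 1.19. The part of this shift in the interaction was not tested. Of the genes that rose in FVF+ cells, 193 also had a called interaction and 199 also rose in FVF- cells, and of those that fell, 129 and 51 did. Prss3 rose by 3.28 more in FVF+ than in FVF- cells, Sst by 3.18, Ins2 by 2.61 and Slc30a8 by 2.46, and in FVF- cells their own differences were 0.10, 0.11, 0.39 and 0.09, none of them called. Among the genes that fell, Pltp differed between the sorts by -2.39, Slc2a2 by -1.97, Kynu by -1.93, Fgg by -1.71 and Onecut3 by -1.54. Bhlha15 (1.32, adjusted p = 0.115), Pax6 (1.13, 0.284), Chgb (0.54, 0.661) and Sox11 (-0.36, 0.686) had no called interaction. Leaving out E13.5 replicate 2 of the FVF+ sort, the interaction counts were 68 and 92, and without its replicate 1 they were 173 and 159. Without E14.5 replicate 3 the lower count was 185 and without E14.5 replicate 1 it was 200.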

How the data were processed

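Total RNA of FVF+ and FVF- cells sorted from mouse embryonic pancreas was measured on 21 arrays. The deposited values are log2 signals, which the authors obtained by RMA in affy 1.44.0 per the submitters' processing notes, and they were used unchanged. Probe set definition and any filter are not given in the sources used here. RMA normalizes arrays to one distribution, which can hide shifts that all genes share, and bright probe sets saturate.

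The table held 23305 probe sets. The platform annotation gave 20728 of them exactly 1 symbol, 1174 several and 1403 none. For 804 genes with several probe sets the one with the highest mean was used, which left 19296 genes, with no filter on dim ones. Symbols were checked by Entrez identifier: 0 changed and 43 identifiers had no match. Insulin 1 had no probe set of its own and is not analysed here.

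In limma 3.58.1 (R 4.3.3) 8 group means were fitted to all 21 arrays (13 residual degrees of freedom) and moderated. Two-sided p-values were adjusted over all genes (Benjamini-Hochberg), with calls under 0.05. On simulated data, 92% of shifts of 1 and 50% of shifts of 0.5 on the log2 scale were called, and 0.0314% of unchanged genes. The simulation shifted 200 genes and drew noise for each gene on its own. It held no deviation shared by a whole array and no letter effect, so these shares are not error rates of the real comparison. Named genes were the 15 largest rises and falls without overlap between the days, predicted and small RNA genes aside, up to 6 called members per direction and 4 others of each list, and 16 fixed genes, and the text gives a selection of them. The members, lists and rules were chosen with earlier results of these data known. Alternatives were other normalizations, subsets of arrays, a replicate block, a letter term, array weights, probe set choice and a dim filter. After centring within groups, same-numbered E13.5 and E14.5 arrays had correlations of -0.13 and -0.16, and crossed pairs 0.16 and 0.13. With 2 E13.5 arrays these values mirror each other, so they cannot show whether the numbers mark pairs. The numbers were not used as pairs.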

Additional observations from a re-analysis of the deposited data

Results flagged for a closer look

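By limma's interaction test, 215 genes had a higher and 316 a lower change over the step in FVF+ than in FVF- cells. The interaction was called for 40 of the genes named here. Each value below is the log2 change in FVF+ minus that in FVF- cells, and no explanation was tested. Among acinar genes it was 3.28 for Try10, 3.28 for Prss3, 2.56 for Cpb1, 2.29 for Rnase1, 2.24 for Pdia2, 2.21 for Try5, 1.94 for Cela3b, 1.94 for Cela2a and 1.15 for Erp27. Cym, which is on no acinar list, had 2.03. Ctrb1 lay the other way at -2.39, with a rise of 3.13 in FVF- cells and a difference of 0.74 in FVF+ cells that was not called. Among hormone genes it was 3.18 for Sst, 2.61 for Ins2, 2.20 for Iapp, 2.17 for Ghrl, 1.97 for Ppy and 1.68 for Gast. Other endocrine genes had 2.46 (Slc30a8), 2.25 (Glp1r), 2.18 (Scgn), 2.00 (G6pc2), 1.89 (Isl1), 1.73 (Ffar1), 1.54 (Rab27a) and 1.47 (Pcsk1), and the glucose transporter Slc2a2 had -1.97.

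Some signalling and progenitor genes had a lower change in FVF+ than in FVF- cells. These were Onecut3 (-1.54), Wnt7b (-1.30), Hey1 (-1.20), Notch3 (-0.99), Fzd2 (-0.91), Etv4 (-0.85), Notch1 (-0.84) and Jag1 (-0.74). In the lists, 5 of 27 Notch, 4 of 39 Wnt and planar polarity and 1 of 19 progenitor genes had a lower interaction and 0 a higher one. Over all genes the lower share was 1.64%. A lower change was also called for Pltp (-2.39), Kynu (-1.93), Fgg (-1.71), Fn1 (-1.37), Trf (-1.05) and Cdkn1c (-1.01). Of these, Pltp and Fn1 rose in FVF- cells while they fell in FVF+ cells. The test of Dixon was not applied to these groups of 2 and 3 arrays.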

How the results depend on the processing

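The step was called for 1134 rises and 573 falls, and the interaction for 215 and 316. Both step counts stayed within 1.5 times of these under median centring, quantile and cyclic loess normalization, the 11 FVF+ arrays alone, intensity trend, either probe set choice and the dim filter. Leaving out 1 of the 5 arrays gave 392 to 1154 rises and 163 to 510 falls, and interactions of 68 to 253 and 92 to 410. The 5 arrays alone gave 531 and 268, the letter term 73 and 54 (64 and 24 of them shared with the reported calls), array quality weights 2317 and 2024, and at least 2-fold 231 and 69, with 124 and 105 interactions. Without E14.5 replicate 2 of both sorts, chosen after seeing the data, 747 rose and 366 fell. Without the FVF- genes, also chosen then, 194 interactions were lower. The cause of these shifts was not tested, except that the 5 arrays alone and single arrays left out mean fewer samples, and that the letter term rests on 1 pair of arrays. With the replicate number as a block the counts were 1093 and 540 over all 21 arrays, and 0 and 0 over the 5 arrays, where 1 residual degree of freedom is left. The numbers were not used as pairs, and whether they pair FVF+ with FVF- arrays was not checked. No named gene reversed its direction in a called value.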

Other observations

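Probe sets of microRNA genes, which read precursor or primary transcripts on whole-transcript arrays rather than mature microRNAs, had a larger share of differences below 0 than all genes did. Of 296 in FVF+ cells 0 rose and 16 fell (5.41%, against 2.97% of all genes), 251 had a difference below 0 (84.8%, against 57.7% of all genes), and the median was -0.16 against -0.04 over all genes. The 16 falls became 3 with the letter term, 8 after quantile and 10 after cyclic loess normalization, and 58 with array quality weights, where 2 rose. They became 0 without E13.5 replicate 1, 2 without its replicate 2, and 7, 5 and 13 without E14.5 replicates 1, 2 and 3. The share below 0 was 71.6% to 86.8% over these fits, lowest after cyclic loess normalization (all genes 51.5%) and highest after median centring (59.8%). Some called probe sets were dim, such as Mir669c (5.25 and 5.28 at E13.5, against a median of 8.77 over all values). With dim genes filtered out, the median of all genes was 0.025. MicroRNA genes were not compared with genes of like signal. In FVF- cells Mir181b-2 (-1.89) and Mir181a-2 (-1.17) were also called lower, and the other called ones were not. The interaction was not called for any of them (lowest adjusted p in limma 0.0576, Mir92b).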
